A study of Rattus norvegicus with 10 samples.

Results

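The genes described here encode the parts of 2 vasoactive peptide systems in rat muscle: the receptors for calcitonin gene-related peptide (CGRP) and adrenomedullin, and endothelin with its receptors. They are Calca, Calcrl, Ramp1, Ramp2, Ramp3, Edn1, Ednra and Ednrb, 8 of the 32883 features of the deposited table, taken by gene name, and each name stood on 1 feature. The 10 libraries of muscle messenger RNA, all from Sprague Dawley rats, carry the labels TZG (3), MPS (3) and NC (4). MPS stands for myofascial pain syndrome, painful taut spots in skeletal muscle. The herbal preparation under study is Tianhe Zhuifeng liquid extract, and sample titles call the TZG samples drug samples. What NC and TZG abbreviate is not spelled out, and the labels give no muscle, sex, age, dose or time. They do not say whether TZG animals had the pain model, nor that samples are separate animals, so a p-value measures the spread between these samples alone, which may be technical.

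CGRP is released by sensory nerve endings and is a strong dilator of small vessels. Its receptor is a complex of the seven-pass receptor encoded by Calcrl with the single-pass partner encoded by Ramp1, whereas Calcrl with Ramp2 or Ramp3 forms adrenomedullin receptors. Endothelin 1, made largely by endothelium, constricts vessels through the type A receptor on smooth muscle, and the type B receptor on endothelium favours dilation and clears the peptide. Both systems act in muscle blood flow and in pain from muscle. In extracts of whole tissue, fewer cells of a type and less RNA per cell cannot be told apart.

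The 4 receptor genes on which the comparisons turn have promoters of different base composition. The 250 bases before each start site are shown from RefSeq (GRCr8), which held a promoter for 7 of the 8 genes; Ramp2 was not matched. Capitals mark matches, on either strand and without overlap, to the GC box (GGGCGG), the TATA box (TATAAA), the CCAAT box (CCAAT), an E-box (CAGCTG) and the core of the cyclic AMP response element (TGACG).
Ramp1 (chr9:99212866-99213115, plus strand): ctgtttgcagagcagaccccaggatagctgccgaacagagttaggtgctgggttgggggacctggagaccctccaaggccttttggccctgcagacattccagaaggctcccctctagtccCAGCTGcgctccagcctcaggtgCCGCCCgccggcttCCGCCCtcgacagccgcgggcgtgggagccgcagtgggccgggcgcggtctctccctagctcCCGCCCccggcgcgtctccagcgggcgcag
Calcrl (chr3:89932617-89932866, minus strand): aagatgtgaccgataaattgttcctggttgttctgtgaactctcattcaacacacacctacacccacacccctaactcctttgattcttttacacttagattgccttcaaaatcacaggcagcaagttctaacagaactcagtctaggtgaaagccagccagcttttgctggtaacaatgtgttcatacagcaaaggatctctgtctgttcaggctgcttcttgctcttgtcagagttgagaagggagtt
Ednra (chr19:47137674-47137923, plus strand): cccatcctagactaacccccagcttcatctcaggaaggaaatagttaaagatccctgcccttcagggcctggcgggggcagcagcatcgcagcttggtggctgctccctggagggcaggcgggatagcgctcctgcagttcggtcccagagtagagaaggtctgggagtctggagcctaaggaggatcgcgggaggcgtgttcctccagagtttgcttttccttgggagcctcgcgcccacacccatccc
Ednrb (chr15:87086766-87087015, minus strand): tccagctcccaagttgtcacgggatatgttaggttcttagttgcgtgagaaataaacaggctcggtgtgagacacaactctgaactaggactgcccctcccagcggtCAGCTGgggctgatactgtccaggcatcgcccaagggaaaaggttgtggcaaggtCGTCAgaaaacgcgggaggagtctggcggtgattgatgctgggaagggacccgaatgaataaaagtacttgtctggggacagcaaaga

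The Ramp1 window held 3 GC boxes and 1 E-box at a GC content of 70.0%, against a median of 51.2% over 33469 rat promoters. The Calcrl window, at 43.6% GC, and the Ednra window, at 61.2% GC, held no match to the 5 motifs. The Ednrb window, at 53.2% GC, held 1 E-box and 1 cyclic AMP response core. Of all promoters of this length, 30.5% held a GC box, 11.97% the E-box, 18.22% the cyclic AMP response core, 34.02% a CCAAT box and 12.9% a TATA box. These matches describe letters in the window and say nothing of a factor's binding.

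Library totals ran between 12616160 and 18179144 counts. Muscle fibre markers (8 genes, among them the actin Acta1, the creatine kinase Ckm and the myosin light chain Mylpf) summed to between 117410 and 180380 counts-per-million (CPM) in 9 libraries. The library MPS 14 stood apart, with 7972 CPM of these markers, and 7694 CPM of lymphocyte and lymph node markers (10 genes, led by Glycam1, Ccl21 and Cxcl13), of which the other libraries had at most 21.2 CPM. TZG 43 was low in endothelial markers (13 genes, led by Egfl7, Cdh5 and Emcn), at 247 CPM against 628 to 1636 CPM in the other 9. It also had 76.0 CPM of epidermis markers (5 genes), against at most 11.7 CPM in the other 9. Its share of mitochondrial counts was 38.6%, against 9.71% to 30.1%. The comparisons of the 8 genes are given both with MPS 14 and without it. Libraries were scaled with TMM factors; with library totals alone, the median log2 fold change of all genes was -0.30 for MPS over NC, -0.12 for TZG over MPS and -0.39 for TZG over NC without MPS 14, and 0.22, -0.54 and -0.39 with it.

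Calca, which encodes CGRP and, by alternative splicing, calcitonin, was almost absent from the muscle libraries. It had 0 counts in TZG 26, 27 and 43, in MPS 10, 11 and 14 and in NC 4, 6 and 7, and 5 counts, or 0.396 CPM, in NC 5. A count of 0 allows up to 0.203 to 0.277 CPM in those 9 libraries, the upper end of a 95% Poisson interval from counting error alone. The gene (ENSRNOG00000011130, chromosome 1, 184184020 to 184188911; the build of these and the following gene positions is not given in the sources used here) did not pass the filter on low counts. With no filter, MPS over NC had an edgeR adjusted p of 0.594 with all libraries and 0.578 without MPS 14, and TZG over NC 0.894 and 0.528. Reads of the 2 splice products are not separated in gene counts. Neuron bodies that make CGRP lie outside muscle, so these counts describe RNA in the tissue and not the peptide.

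Levels per gene length (FPKM) put the adrenomedullin partner Ramp2 first among the 8 genes by mean in every group. In NC, Ramp2 averaged 114 ± 5.69 FPKM, above Calcrl at 11.6 ± 2.11 and Ramp1 at 10.7 ± 2.51, whose ranges overlapped (SD, n = 4). Ednrb at 3.31 ± 1.29 and Ednra at 3.22 ± 0.27 FPKM came next and overlapped too. Edn1 at 1.05 ± 0.21, Ramp3 at 0.213 ± 0.208 and Calca at 0.0706 FPKM were lowest in NC. In TZG the order was Ramp2 (57.9 ± 34.02 FPKM), Ramp1 (30.1 ± 21.8), Calcrl (3.92 ± 1.498) and Ednra (1.42 ± 0.70), then Edn1 (0.691 ± 0.294) and Ednrb (0.687 ± 0.111) (SD, n = 3). The ranges of Ramp2 and Ramp1 overlapped in TZG, and Ramp1 lay wholly above Calcrl. In MPS, Ramp2 (66.7 ± 36.2 FPKM) and Ramp1 (59.8 ± 13.4) overlapped as well, and Calcrl averaged 16.7 ± 22.9 FPKM with MPS 14 (n = 3) and 3.50 ± 1.38 FPKM without it (n = 2). Ramp1 overlapped Calcrl in NC and exceeded it in each TZG and MPS library.

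**Figure D1:**
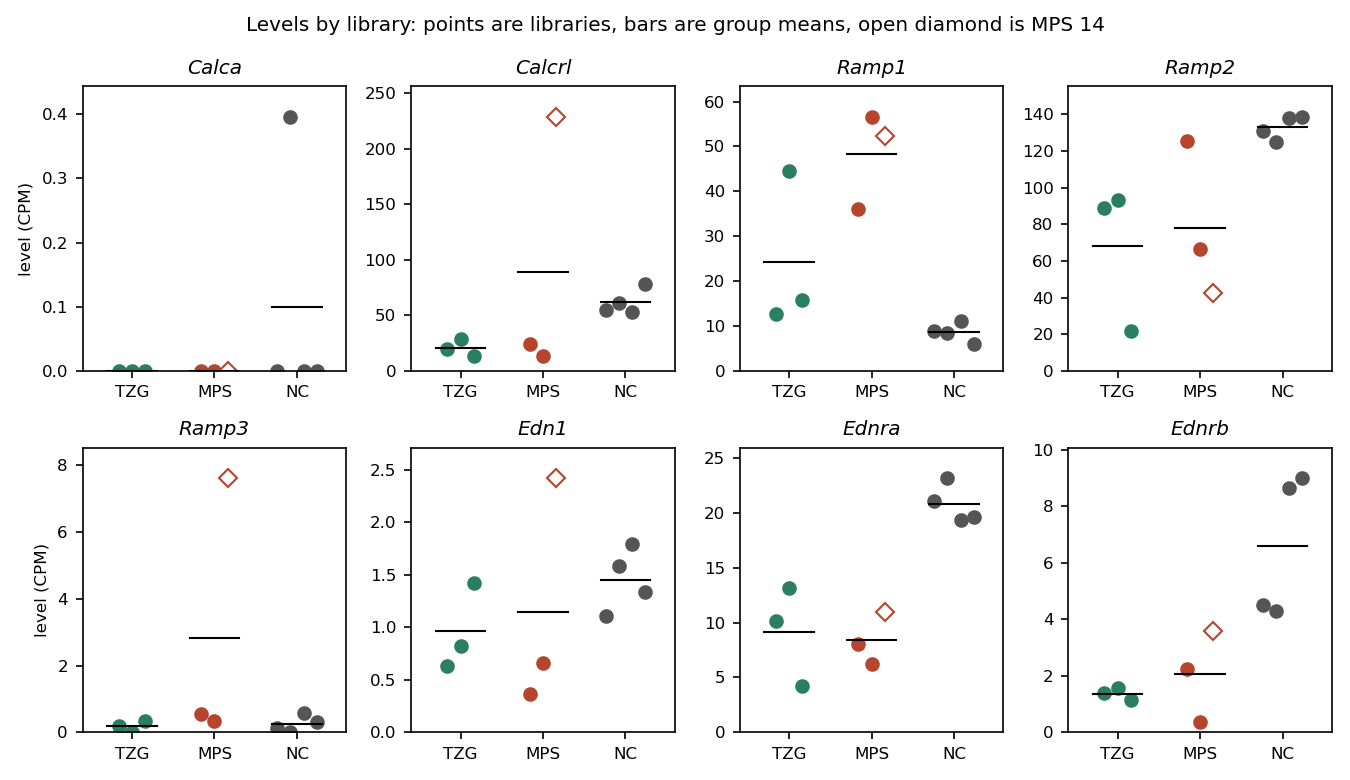
Level of each gene in CPM (vertical axis, from 0) in every library of TZG, MPS and NC; points are libraries, bars group means, and the open diamond is MPS 14. The 3 MPS points and 3 TZG points of Ramp1 lie above all 4 NC points, and those of Ednra and Ednrb below them.

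Ramp1, the partner that gives Calcrl its CGRP binding (ENSRNOG00000019926, chromosome 9, 98313632 to 98364205), was higher in MPS and in TZG than in NC in every library. It had 12.64, 44.6 and 15.8 CPM in TZG 26, 27 and 43, and 36.1, 56.7 and 52.3 CPM in MPS 10, 11 and 14. In NC 4, 5, 6 and 7 it had 8.98, 8.40, 11.02 and 6.10 CPM. The TZG range was wide and overlapped that of MPS through TZG 27, and neither overlapped NC. Without MPS 14, Ramp1 rose in MPS over NC by a log2 fold change of 2.72 ± 0.39 (SE), or 6.59-fold (edgeR adjusted p = 0.0137 over 13719 genes). With all libraries the value was 2.49 ± 0.42 and did not pass (edgeR adjusted p = 0.292), although it ranked 4 of 13535 genes by p. TZG over NC stood at 1.86 ± 0.36 without MPS 14 (edgeR adjusted p = 0.0637) and at 1.85 ± 0.41 with it (adjusted p = 0.837). TZG over MPS stood at -0.86 ± 0.42 without MPS 14 (edgeR adjusted p = 0.970) and at -0.64 ± 0.44 with it (adjusted p = 0.780).

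The Ramp1 call without MPS 14 depended on single libraries. It was lost without NC 5, without NC 7, without MPS 10 and without MPS 11. The last 2 leave 1 MPS library, assumed to vary like the other groups. The log2 fold change stayed between 2.30 and 3.08 over all 9 such fits, with edgeR adjusted p between 0.00226 and 0.169.

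Markers of slow muscle fibres (7 genes, among them Myl3, Tnnt1 and Tnnc1) were also high in the libraries with most Ramp1. They summed to 56.7, 3271 and 106 CPM in TZG 26, 27 and 43, 1483, 2978 and 662 CPM in MPS 10, 11 and 14, and 42.6 to 75.9 CPM in NC. In MPS over NC without MPS 14, 3 of the 7 passed, all higher (Myh7, Tnnt1 and Tnnc1), at a list median of 7.36 against -0.02 for all genes. With all libraries 0 of 7 passed, at a median of 6.82 against 0.13. At most 1 of these markers was at 0 in a TZG or MPS library, and 1 or 2 in each NC library. Schwann cell and myelin markers (9 genes, among them Pmp22 and S100b) summed to 45.2 to 180.5 CPM across TZG, 330.4 and 233 CPM in MPS 10 and 11, 80.9 CPM in MPS 14 and 74.2 to 147 CPM in NC. Of these, Prx and Mag passed, both higher in MPS than in NC, and the list median was 1.90 (with all libraries 1.55, and 0 of the 8 tested passed); the number at 0 was up to 2 for TZG libraries, up to 3 for MPS libraries and up to 2 for NC libraries. The part of either list in the Ramp1 difference was not tested.

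Calcrl, the seven-pass receptor shared by CGRP and adrenomedullin (ENSRNOG00000054695, chromosome 3, 71747956 to 71845232), fell in MPS relative to NC once MPS 14 was left out. Its levels were 20.1, 29.1 and 13.3 CPM in TZG 26, 27 and 43, and 23.8 and 13.4 CPM in MPS 10 and 11, but 229 CPM in MPS 14. In NC 4, 5, 6 and 7 they were 55.2, 61.1, 53.0 and 77.75 CPM. Every TZG library and both other MPS libraries lay below every NC library, and MPS 14 lay above all. Without MPS 14, MPS over NC was -1.49 ± 0.30 (SE), 2.801-fold lower (edgeR adjusted p = 0.0357). With it the fold change was -0.01 ± 0.61 (edgeR adjusted p = 0.998). For TZG over NC the values were -1.20 ± 0.26 (edgeR adjusted p = 0.0663) without MPS 14 and -1.21 ± 0.63 (0.865) with it. TZG over MPS was 0.29 ± 0.30 without MPS 14 and -1.20 ± 0.66 with it (edgeR adjusted p = 0.975 and 0.771). The call in MPS was lost when any of NC 4, 5, 6 and 7, MPS 10 or MPS 11 was left out, at log2 fold changes between -1.86 and -1.16 and edgeR adjusted p between 0.0124 and 0.323 over the 9 such fits, and with scaling by library totals alone.

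Ramp2, the partner that makes the adrenomedullin receptor of endothelium (ENSRNOG00000020415, chromosome 10, 89166890 to 89168965), was even among NC libraries and uneven elsewhere. It had 88.8, 93.1 and 21.9 CPM in TZG 26, 27 and 43, 125, 66.7 and 42.7 CPM in MPS 10, 11 and 14, and 131, 125, 138 and 139 CPM in NC 4, 5, 6 and 7. The TZG libraries lay below NC, and MPS 10 reached the NC range. TZG over NC was -0.62 ± 0.36 without MPS 14 and -0.63 ± 0.55 with it (edgeR adjusted p = 0.375 and 0.901). MPS over NC was -0.22 ± 0.41 and -0.65 ± 0.55 (edgeR adjusted p = 0.802 and 0.675) in the same order. TZG over MPS was -0.40 ± 0.42 and 0.02 ± 0.58 (edgeR adjusted p = 0.974 and 0.995). TZG 43, lowest in Ramp2, was also lowest in the endothelial markers. Across libraries these summed to 1018, 1416 and 247 CPM in TZG 26, 27 and 43, 1492, 877 and 628 CPM in MPS 10, 11 and 14, and 1208 to 1636 CPM in NC, with at most 1 marker at 0 in any library. Without MPS 14, 0 of 13 endothelial markers passed in any comparison, at medians of -0.03 for MPS over NC, -0.33 for TZG over MPS and -0.37 for TZG over NC. With all libraries 0 of 13 passed as well. The medians were then -0.45 for MPS over NC, with 12 of 13 lower, 0.02 for TZG over MPS and -0.38 for TZG over NC. The part of endothelial content in the Ramp2 and Calcrl values was not tested.

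Ramp3, the other adrenomedullin partner (ENSRNOG00000053766, chromosome 14, 86922223 to 86939719), had few reads outside MPS 14. It had 3, 0 and 5 counts in TZG 26, 27 and 43, 9, 6 and 104 counts in MPS 10, 11 and 14, and 2, 0, 8 and 4 counts in NC 4, 5, 6 and 7. The 104 counts came to 7.62 CPM, and the other 9 libraries stayed at or below 0.596 CPM. The gene did not pass the filter on low counts. With no filter, MPS over NC was 2.85 ± 1.24 with all libraries and 1.03 ± 1.26 without MPS 14 (edgeR adjusted p = 0.505 and 0.724). MPS 14, which held the highest Ramp3 and Calcrl, also held 226 CPM of lymphatic endothelial markers (6 genes, led by Lyve1, Pdpn and Flt4), against 25.4 to 69.3 CPM in the other 9 libraries; their part was not tested.

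The balance of the receptor partners set TZG and MPS apart from NC, and TZG and MPS overlapped each other. Ramp1 made up 17.1%, 41.0% and 50.7% of the summed FPKM of the 3 Ramp genes in TZG 26, 27 and 43. The share was 29.4%, 55.1% and 60.3% in MPS 10, 11 and 14. The NC libraries 4, 5, 6 and 7 had 9.04%, 8.91%, 10.3% and 5.98%. Neither the TZG nor the MPS shares overlapped NC, MPS 14 included. The FPKM ratio of Ramp1 to Calcrl was 4.14, 10.1 and 7.80 in TZG 26, 27 and 43. It was 9.97, 27.8 and 1.501 in MPS 10, 11 and 14, against 1.07, 0.903, 1.37 and 0.515 across the NC libraries. MPS 14 came nearest to NC in that ratio, through its high Calcrl. The ratio of Ramp2 to Calcrl overlapped between TZG (7.48 to 20.0) and NC (8.08 to 11.8), whereas MPS 10 and 11 (23.9 and 22.6) lay above NC and MPS 14 (0.845) below. These ratios are within a library, do not depend on scaling between libraries, and carry no test.

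**Figure D2:**
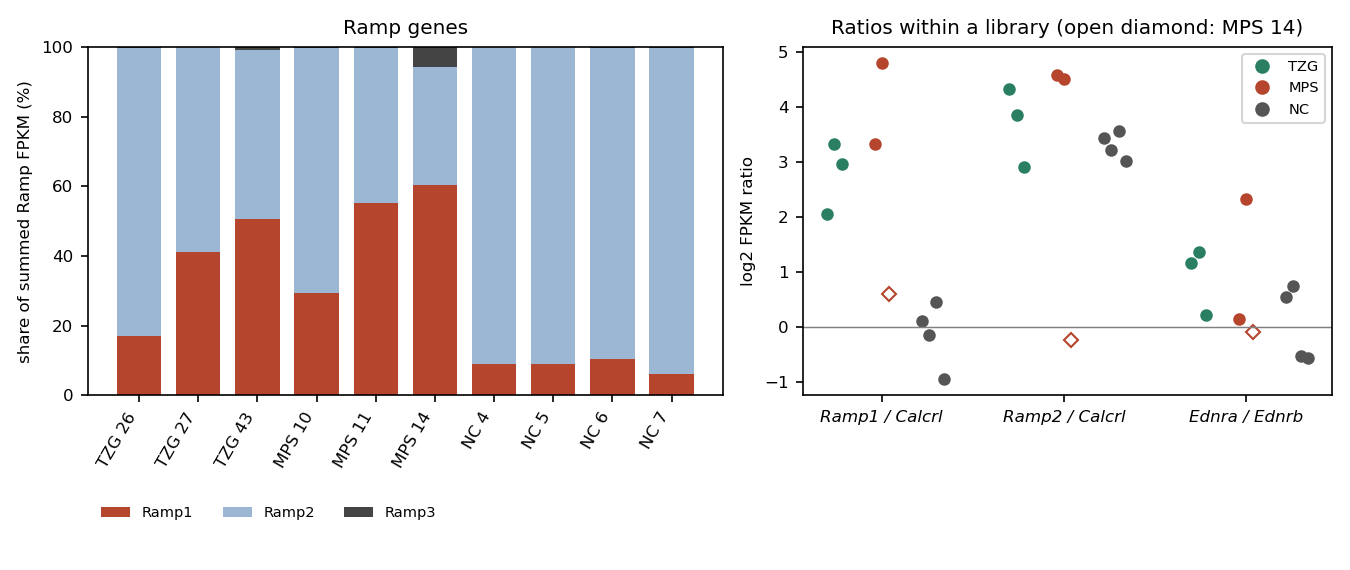
Left, share of the summed FPKM of Ramp1, Ramp2 and Ramp3 held by each gene in every library (percent). Right, log2 FPKM ratio of gene pairs, with points for TZG, MPS and NC libraries and an open diamond for MPS 14; the Ramp1 share is 17.1% or more in TZG and MPS libraries and 10.3% or less in NC libraries.

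Edn1, the gene of the endothelin 1 precursor (ENSRNOG00000014361, chromosome 17, 22137324 to 22143324), was low in all groups. It had 0.635, 0.826 and 1.42 CPM in TZG 26, 27 and 43, 0.364, 0.660 and 2.42 CPM in MPS 10, 11 and 14, and 1.10, 1.59, 1.79 and 1.34 CPM in NC 4, 5, 6 and 7. These are 6 to 33 counts per library, and TZG overlapped both other groups. MPS 10 and 11 lay below NC and MPS 14 above it. MPS over NC was -1.20 ± 0.62 without MPS 14 and -0.64 ± 0.56 with it (edgeR adjusted p = 0.303 and 0.685). TZG over NC was -0.13 ± 0.51 and -0.13 ± 0.56 (edgeR adjusted p = 0.923 and 0.983), and TZG over MPS 1.07 ± 0.65 and 0.51 ± 0.60 (0.970 and 0.862).

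Ednra, the type A receptor that drives smooth muscle contraction (ENSRNOG00000012721, chromosome 19, 33928356 to 33991703), was lower in every TZG and MPS library than in any NC library. It had 10.1, 13.1 and 4.26 CPM in TZG 26, 27 and 43, 8.001, 6.22 and 10.9 CPM in MPS 10, 11 and 14, and 21.1, 23.1, 19.3 and 19.6 CPM in NC 4, 5, 6 and 7. The gap to NC in MPS was there with MPS 14 included, and leaving that library out cannot close it. The test across all genes did not pass: MPS over NC was -1.29 ± 0.33 without MPS 14 (edgeR adjusted p = 0.0649) and -1.40 ± 0.32 with it (0.383). Without MPS 14 it passed with DESeq2 (adjusted p = 0.00512), which called 1100 of 13719 genes. In edgeR it passed with a minimum mean of 5 CPM (0.0476), with the 2 groups alone (0.0106) and without TZG 43 (0.0109). It did not pass with limma-voom (adjusted p = 0.0541). In edgeR it also failed with RLE scaling (0.0635), library totals (0.0843), no filter (0.0807), gene length correction (0.0802) and robust dispersion (0.0608). Over left-out libraries the log2 fold change ran from -1.40 to -1.16. TZG over NC was -0.82 ± 0.28 without MPS 14 (edgeR adjusted p = 0.157) and -0.84 ± 0.32 with it (0.865). TZG over MPS was 0.47 ± 0.33 and 0.56 ± 0.33 (edgeR adjusted p = 0.970 and 0.771).

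Ednrb, the type B receptor of endothelium (ENSRNOG00000010997, chromosome 15, 88006977 to 88036354), was likewise lower in every TZG and MPS library than in any NC library. It had 1.40, 1.58 and 1.14 CPM in TZG 26, 27 and 43, 2.24, 0.385 and 3.59 CPM in MPS 10, 11 and 14, and 4.49, 4.28, 8.64 and 8.99 CPM in NC 4, 5, 6 and 7. NC fell into a lower pair, NC 4 and 5, and a higher pair, NC 6 and 7, all above TZG and MPS. MPS over NC was -2.07 ± 0.59 without MPS 14 (edgeR adjusted p = 0.0873) and -1.87 ± 0.54 with it (0.383). With DESeq2 it passed at adjusted p = 0.00858 and 0.0353 in the same order. These DESeq2 fits called 1100 of 13719 and 205 of 13535 genes. TZG over NC was -1.83 ± 0.50 (edgeR adjusted p = 0.104) and -1.84 ± 0.55 (0.837). TZG over MPS was 0.24 ± 0.60 and 0.03 ± 0.56 (edgeR adjusted p = 0.994 and 0.991). MPS 11 had 7 counts of Ednrb. With MPS 14 also left out, MPS over NC was -1.30 without MPS 11 and -3.70 without MPS 10, each resting on a single MPS library. With MPS 14 kept, it was -1.44 without MPS 11 and -2.25 without MPS 10. The FPKM ratio of Ednra to Ednrb overlapped between all groups, at 1.16 to 2.57 in TZG, 0.938 to 4.98 in MPS and 0.673 to 1.67 in NC.

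Smooth muscle, fibroblast, macrophage and fat cell markers were measured beside the receptors. Pericyte and smooth muscle markers (12 genes, led by Acta2, Tagln and Rgs5) summed to 548, 1023 and 266 CPM in TZG 26, 27 and 43, 889, 736 and 351 CPM in MPS 10, 11 and 14, and 847 to 1048 CPM in NC, with none at 0. Their median was 0.16 for MPS over NC without MPS 14 and -0.32 with it, when 8 of 12 were lower, and 0 of 12 passed either way. Fibroblast markers (11 genes, led by Gsn, Dcn and Col3a1) summed to 1834 to 5507 CPM in TZG, 1424 and 1394 CPM in MPS 10 and 11, 3566 CPM in MPS 14 and 2420 to 5069 CPM in NC, with none at 0. All 11 were lower in MPS than in NC without MPS 14, at a median of -1.20, and Pdgfra passed (-1.32, edgeR adjusted p = 0.0361). With MPS 14, 9 of 11 were lower at a median of -0.66, and 0 passed. Macrophage markers (10 genes, led by Lyz2, C1qc and C1qb) were at a median of -1.77 for MPS over NC without MPS 14, with 10 of 10 lower. With MPS 14 the median was -0.17, with 6 of 10 lower, and 0 of 10 passed either way. They summed to 103 to 341 CPM in TZG, 117 and 99.0 CPM in MPS 10 and 11, 6325 CPM in MPS 14 and 261 to 598 CPM in NC, with none at 0. Fat cell markers (8 genes, led by Fabp4, Cfd and Lipe) summed to 534 to 642 CPM in TZG, 119 to 1225 CPM in MPS and 475 to 630 CPM in NC. Their median for TZG over NC was 2.19 without MPS 14 and 2.15 with it, with 8 of 8 higher both times. TZG and NC still overlapped in the mean log2(CPM + 1) of the fat markers. It was 3.41, 4.30 and 5.51 in TZG 26, 27 and 43, and 2.69, 4.30, 2.69 and 2.92 in NC 4, 5, 6 and 7. For MPS over NC the median log2 fold change was 1.08 without MPS 14, with 8 of 8 higher, and 0.72 with it, with 7 of 8 higher. In these fits 0 of 8 passed. No fat marker was at 0 in a TZG or MPS library, and 0 to 3 of the 8 were at 0 in an NC library. The part of fat, fibroblast or macrophage content in the Ramp1, Calcrl, Ednra and Ednrb values was not tested.

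**Figure D3:**
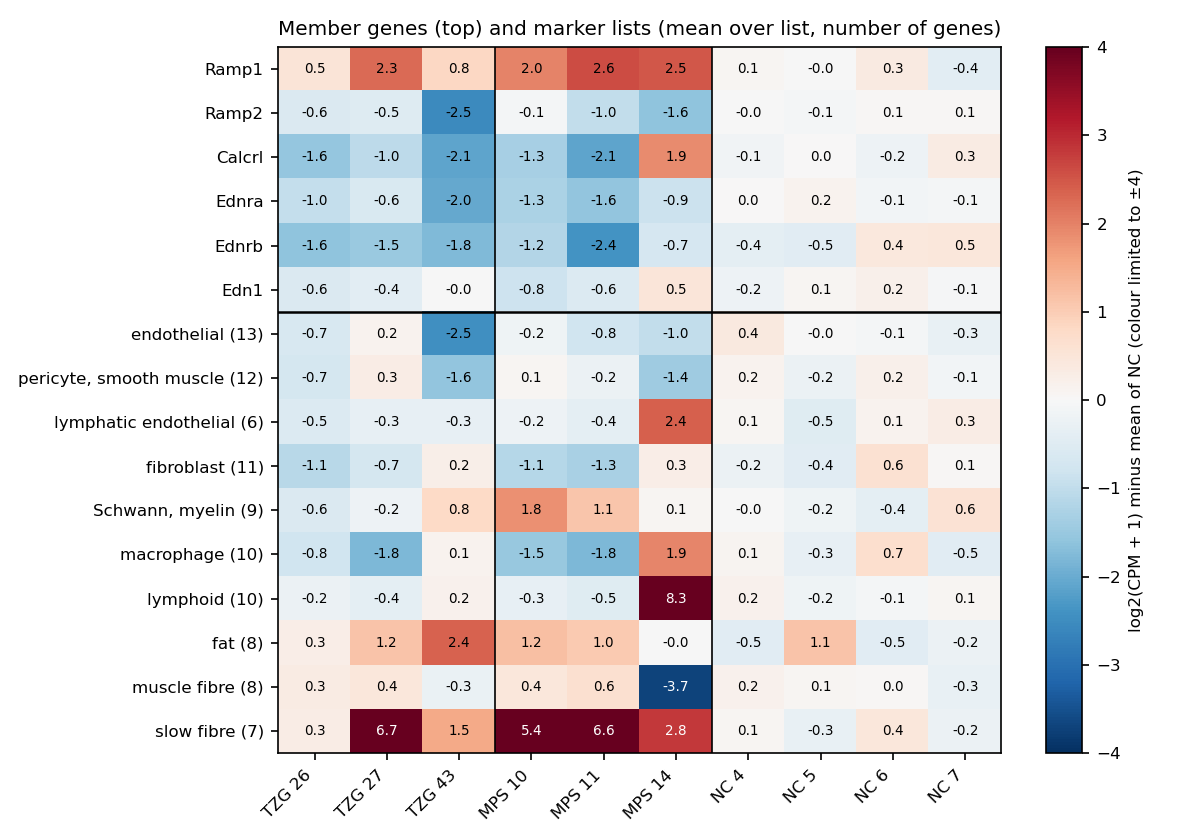
Level of 6 genes (top) and mean level of 10 marker lists (bottom, number of genes in brackets) in each library, as log2(CPM + 1) minus the mean of the 4 NC libraries. Ramp1 and slow fibre markers are high in TZG 27, MPS 10 and MPS 11. Ramp1 is high in MPS 14 too (2.49), where slow fibre markers are at 2.83 and muscle fibre markers at -3.69. Endothelial markers are lowest in TZG 43, and lymphoid markers are high in MPS 14.

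For MPS against NC, 2 of the 6 genes tested passed without MPS 14, Ramp1 higher and Calcrl lower, where 2.38% of all genes passed (2.06% higher and 0.321% lower). With all libraries 0 of 6 passed, and 0% of all genes; 1483 genes had an unadjusted edgeR p under 0.05, and limma-voom called 0 genes and DESeq2 205, among them Ramp1, Ednra and Ednrb. Groups did not overlap in CPM without MPS 14 for 5 of the 6, Ramp1 higher and Calcrl, Ednra, Ednrb and Edn1 lower, against 41.1% of all genes (9.44% higher and 31.6% lower). With MPS 14 this held for Ramp1, Ednra and Ednrb, against 9.47% of genes (3.51% higher and 5.96% lower). The median of the 6 log2 fold changes was -1.24 without MPS 14 and -0.65 with it, and that of all genes -0.02 and 0.13. Ramp3 and Calca did not pass the filter on low counts and are not part of these counts.

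For TZG against NC, 0 of the 6 passed with or without MPS 14. Of all genes 0.051% passed without it and 0% with it; with it 762 had an unadjusted edgeR p under 0.05, limma-voom called 0 genes and DESeq2 55, among them Ramp1. Without MPS 14, DESeq2 called 857 of 13719 genes, among them Ramp1, Calcrl and Ednrb. The groups did not overlap in CPM for 5 of the 6, Ramp1 higher and Ramp2, Calcrl, Ednra and Ednrb lower, against 25.8% of genes (1.4% higher and 24.4% lower). In TMM-scaled CPM the same 5 did not overlap, against 17.4% of genes (9.18% higher and 8.23% lower). The median of the 6 was -0.72 without MPS 14 and -0.73 with it, and that of all genes 0.03 and 0.02.

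For TZG against MPS, 0 of the 6 passed and all 6 overlapped in CPM, with or without MPS 14. Of all genes 0.00729% passed without it and 0% with it, where 722 genes had an unadjusted edgeR p under 0.05, limma-voom called 0 and DESeq2 3. Groups did not overlap for 16% of genes without MPS 14 and for 7.93% with it. The median of the 6 was 0.26 without MPS 14 and 0.02 with it, and that of all genes 0.02 and -0.05. Missing the threshold does not show that levels were alike, and the SE of these fold changes ran between 0.30 and 0.66. The 3 comparisons share libraries and are not independent of each other.

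**Figure D4:**
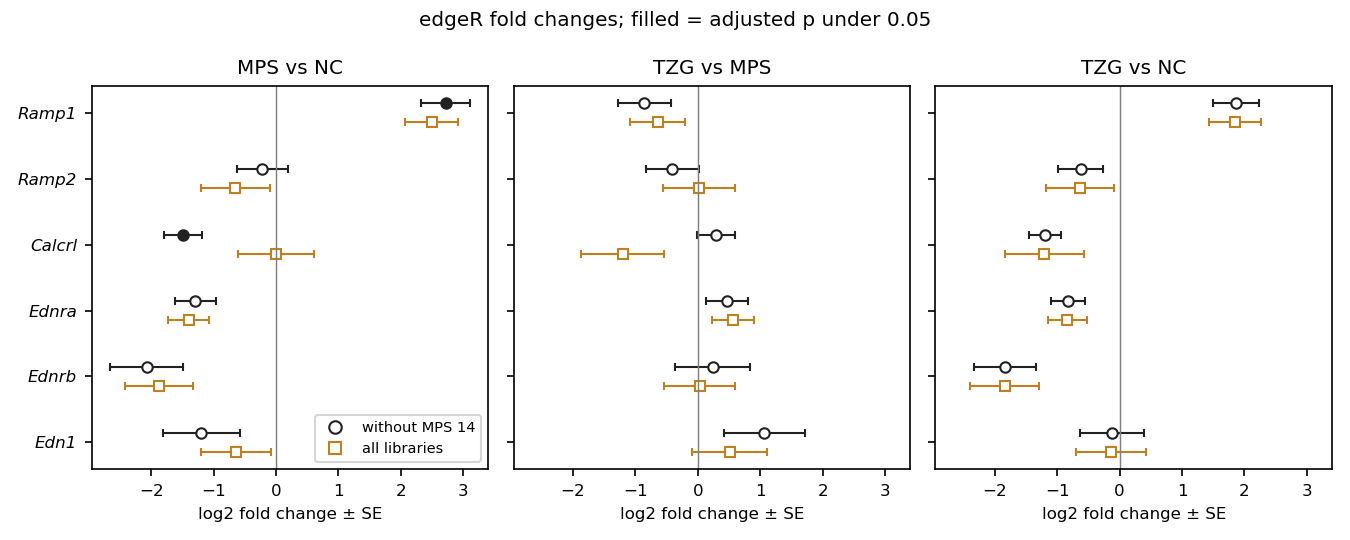
Log2 fold change ± SE from edgeR for the 6 genes tested, in MPS over NC, TZG over MPS and TZG over NC; circles are fits without MPS 14, squares fits with all libraries, and filled symbols have an adjusted p under 0.05. Ramp1 at 2.72 and Calcrl at -1.49 in MPS over NC without MPS 14 are the filled symbols.

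The authors' deposited table gives Ramp1 a log2 fold change of 2.495 for MPS over NC (q = 0.00078) and 1.85 for TZG over NC (q = 0.000539). The authors' deposited table also lists q values of 0.00982 for Calcrl (-1.21) and 0.00984 for Ednrb (-1.85) in TZG over NC. For MPS over NC the authors' deposited table gives Calcrl -0.045 at q = 1 and Ednrb -1.89 at q = 0.257. For Ednra in MPS over NC the authors' deposited table gives -1.41 at q = 0.178. The 7 members with a value for TZG over MPS in the authors' deposited table, all but Calca, have a q of 1 there.

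Other genes of these pathways gave no call in any comparison, with MPS 14 or without it. Of the further partners of the CGRP and adrenomedullin system, 4 of 7 were tested and their median in MPS over NC without MPS 14 was -0.40 (-0.69 with it). The scavenging receptor Ackr3 had -0.48 ± 0.34, the calcitonin receptor Calcr -0.67 ± 0.49 and Crcp, a protein that couples the CGRP receptor to its signal, 0.16 ± 0.21 (edgeR adjusted p = 0.467, 0.477 and 0.711). The ligand genes Calcb and Iapp had no count in any library. Edn3, the tested one of 2 other endothelin genes, had -0.32 ± 0.45 (edgeR adjusted p = 0.733), and -0.62 with MPS 14.

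Among 10 tested genes of peptide processing and breakdown, the insulin-degrading enzyme Ide stood at -0.64 ± 0.23, the amidating enzyme Pam at -0.50 ± 0.26 and neprilysin, Mme, at -1.45 ± 0.90 (edgeR adjusted p = 0.152, 0.296 and 0.384), and the list median was -0.45 (-0.38 with MPS 14, over 9 genes). Among 20 genes of Gs and cyclic AMP signalling, into which the CGRP receptor feeds, the median was -0.29 without MPS 14 and turned to 0.22 with it. The kinase subunit Prkaca stood at 0.71 ± 0.24 and the adenylyl cyclases Adcy7 and Adcy2 at -2.02 ± 0.80 and -0.50 ± 0.20 (edgeR adjusted p = 0.133, 0.188 and 0.188). Among 20 genes of Gq, calcium and contraction, through which the endothelin receptors act, the median was -0.15 without MPS 14 and turned to 0.10 with it. Ppp1r14a, an inhibitor of myosin phosphatase, stood at 1.78 ± 0.43, the kinase Rock2 at -0.57 ± 0.21 and the G protein subunit Gna13 at -0.61 ± 0.25 (edgeR adjusted p = 0.0546, 0.158 and 0.193).

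Regulators of receptor signalling had 11 genes tested and a median of -0.03 (0.32 with MPS 14), with Rgs3 at 0.64 ± 0.29, Grk6 at 0.37 ± 0.21 and Rgs4 at -0.69 ± 0.45 (edgeR adjusted p = 0.238, 0.340 and 0.408). Other vasoactive systems had 23 genes tested and a median of -0.20 (-0.35 with MPS 14). There the angiotensin receptor Agtr1a stood at -1.45 ± 0.34, the natriuretic peptide receptor Npr2 at 0.97 ± 0.36 and the guanylyl cyclase subunit Gucy1a1 at -0.72 ± 0.30 (edgeR adjusted p = 0.0513, 0.169 and 0.212). Where not stated otherwise, these values are for MPS over NC without MPS 14. With MPS 14, Adcy7 turned to 3.32 and Gna13 to 0.44, and the other genes named from these lists kept their direction.

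Genes with the most similar pattern were sought among 11213 genes over the 9 libraries other than MPS 14, by the root mean square difference in log2 TMM-scaled CPM, with 1 CPM added, after centring each gene. Ramp1 was nearest to Cox7a1 (0.330), Zfp703 (0.402) and Atp1b1 (0.403), with the median gene at 1.18. Cox7a1 had 0 CPM in NC 5, 6 and 7 and a log2 fold change of 5.29 for MPS over NC, against 2.72 for Ramp1. At such low levels the added 1 CPM shortens the distance between genes, and other values of it were not tried. Ramp2 was nearest to Tek (0.109), Mmrn2 (0.138) and Sparcl1 (0.138), with the median gene at 0.678. Tek is itself among the endothelial markers.

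Calcrl and Ednra shared Entpd1 as their nearest gene (0.216 and 0.192). Calcrl was followed by Zc3h6 (0.228) and Ltbp1 (0.258), and Ednra by Ralgapa1 (0.200) and Ttll7 (0.203). Entpd1 had 21.5, 25.97 and 10.9 CPM in TZG 26, 27 and 43, 18.7 and 14.4 CPM in MPS 10 and 11, and 44.5, 40.6, 49.2 and 56.5 CPM in NC 4, 5, 6 and 7. In MPS 14, which was not part of the search, Entpd1 had 84.6 CPM, Calcrl 229 CPM and Ednra 10.9 CPM. Ednrb was nearest to Dtx3l (0.216), Samd9 (0.217) and Ifi44l (0.222), with the median gene at 0.864. The likeness did not extend to MPS 14, with 127, 126 and 51.8 CPM of these genes and 3.59 CPM of Ednrb. Edn1 was nearest to Hnrnpll (0.0857), Morc4 (0.103) and Hdlbp (0.112), with the median gene at 0.456. Edn1 itself varied little on this scale, with a root mean square of 0.315 around its mean.

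**Figure D5:**
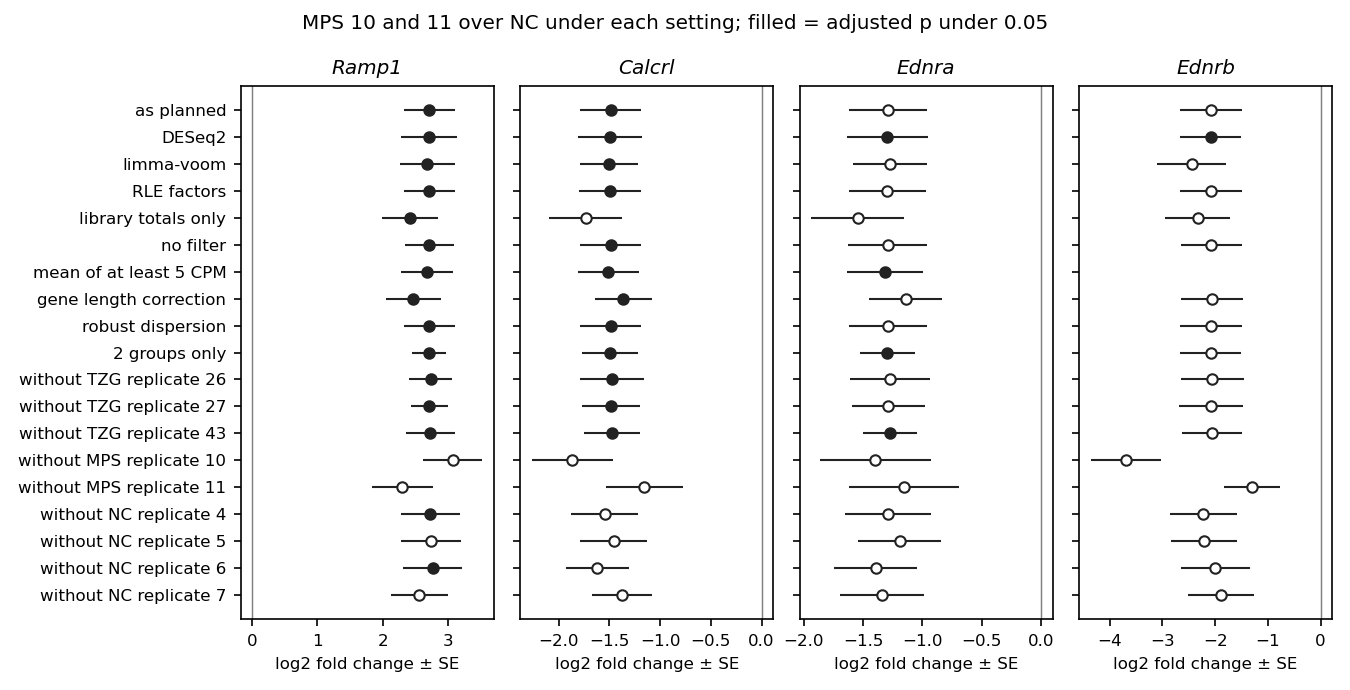
Log2 fold change ± SE of Ramp1, Calcrl, Ednra and Ednrb for MPS 10 and 11 over NC under each setting of the analysis and each left-out library (rows; filled circles have an adjusted p under 0.05). Ramp1 stays above 0 and the other 3 genes below 0 in all rows, and the calls of Ramp1 and Calcrl are lost without MPS 10, MPS 11, NC 5 or NC 7. The Calcrl call is also lost without NC 4, without NC 6 and with library totals alone.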

How the data were processed

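Per the labels' protocols, an RNeasy kit yielded the RNA of rat muscle and a SMARTER mRNA-Seq kit the libraries. The authors deposited whole-number counts and FPKM per feature and library, per the file headers; the 2 deposited tables are the same byte for byte. FPKM equalled counts over gene length and library total within 0.1% for 100% of values of at least 50 counts. Per the file headers, log2 fold changes and q-values of the authors' comparisons were deposited too. Tools named in the submitters' processing notes, with no role, are StringTie 1.3.3b, HISAT2, fastp and edgeR 3.30.3; the build and the treatment of strand and shared reads are not given in the sources used here.

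Counts were tested in R 4.3.3 with edgeR 4.0.16 (filterByExpr, TMM, two-sided quasi-likelihood test, 3 groups in 1 fit, Benjamini-Hochberg over all genes tested, threshold 0.05). CPM use the library total. Each SE given with an edgeR fold change was derived, as the size of the log2 fold change over the square root of the test's F statistic. The fit was tested on simulated data. With all libraries it recovered 12.1%, 10.3% and 6.9% of 58 genes changed 4-fold, for MPS over NC, TZG over MPS and TZG over NC. Without MPS 14 it recovered 75.4%, 71.9% and 84.2% of 57 such genes in the same order. Of genes changed 2-fold it recovered 1.37%, 1.37% and 0% of 73 with all libraries. Without MPS 14 these were 10.8%, 5.41% and 12.2% of 74. False calls numbered 3, 0 and 1 with all libraries and 9, 10 and 6 without MPS 14. Apart from the changed genes, simulated libraries shared the same mean per gene, so differences in tissue content between libraries were not simulated. Alternatives were DESeq2 1.42.0, limma-voom 3.58.1, other scalings, filters and sample sets, a gene length correction, each library left out and, added after seeing the data, robust dispersion. The genes, the 18 lists (208 of 213 entries matched) and the fit without MPS 14 were chosen with earlier results of these data known.

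Named genes are all 8 members; of each pathway list the called genes or, with no call, up to 3 with the smallest p; of marker lists the called genes and up to 3 with the highest mean FPKM; and the 3 genes of most similar pattern. A marker of the Schwann cell list is not reported here. Called marker genes, Calcb and Iapp were named after their values were seen. Epidermis markers (5 matched) summed to 6.10 to 76.0 CPM in TZG, 6.96 to 11.7 in MPS and 8.03 to 9.09 in NC; 0 passed. Motifs were searched in RefSeq promoters of the GRCr8 assembly, whose coordinates were not mixed with those of the table. Plots were made in matplotlib 3.10.9 under Python 3.11.15.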

Additional observations from a re-analysis of the deposited data

Results flagged for a closer look

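Calca in NC was picked out because 1 library lay far from the other 3. NC 5 had 0.396 CPM, from 5 counts, and NC 4, 6 and 7 had 0. With 3 libraries at 0, any read in the remaining library gives this result, and no rate of chance results was attached to it.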

How the results depend on the processing

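No paired analysis was possible because no 2 samples share a title number. Of 992 alternative values, 887 kept their direction and their side of the threshold or their size, and 25 reversed. Part of the 887 could not have come out otherwise, so their share does not measure robustness. Leaving out a library cannot move a group's mean CPM by more than the SD allowed. Gene length cancels when ratios in counts replace ratios in FPKM. The cause of the differences below was not tested.

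For MPS over NC without MPS 14 (326 genes and 2 of the 6 members called), DESeq2 called 1100 and 4, a fit of the 2 groups alone called 1181 genes, and library totals alone called 46 and 1. Leaving out a library gave between 1 gene (without MPS 10) and 1007 (without TZG 43), with 3 without MPS 11, 2 without NC 5, 29 without NC 7, 41 without NC 6, 85 without NC 4 and 586 without TZG 26, and 0 to 3 members. With all libraries (0 and 0 called), DESeq2 called 205 and 3, and leaving out a library gave 0 to 326 genes and 0 to 2 members, the higher values without MPS 14.

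For TZG over MPS, DESeq2 called 3 genes with all libraries and 14 without MPS 14, where 1 was called; there limma-voom and the fit of 2 groups called 0. Leaving out a library gave 0 to 1 with all libraries and 0 to 2 without MPS 14. For TZG over NC with all libraries, DESeq2 called 55 genes and 1 member and the fit of 2 groups 3 genes, and leaving out a library gave 0 to 7. Without MPS 14 (7 called), DESeq2 called 857 genes and 3 members, library totals alone 12, a minimum mean of 5 CPM 57, robust dispersion 11 and the fit of 2 groups 3. Leaving out a library then gave 0 to 239 genes and 0 to 1 members, with 239 and 1 (Ramp1) without TZG 43.

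Reversed values were these. With all libraries, Calcrl in MPS over NC was 0.52 with library totals, 0.012 with the 5 CPM minimum, 0.0016 with 2 groups and -1.49 to 0.42 over left-out libraries. In TZG over MPS, library totals gave Ramp2 -0.20, Ednrb -0.59 and Edn1 -0.24, and gene length correction gave Ramp2 -0.039. Over left-out libraries Ramp2 ran from -0.40 to 0.65, Calcrl from -1.63 to 0.29, Ednrb from -0.40 to 0.41 and Edn1 from -0.031 to 1.07. Edn1 in TZG over NC ran from -0.68 to 0.10. Without MPS 14, left-out libraries gave Ramp2 -0.64 to 0.14 in MPS over NC, Ramp2 -0.77 to 0.021, Calcrl -0.048 to 0.66 and Ednrb -0.54 to 1.86 in TZG over MPS, and Edn1 -0.68 to 0.11 in TZG over NC.

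Calca and Ramp3 were tested with no filter alone, and Edn1 and Ednrb rest on few counts per library.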
